A study of Mus musculus with 17 samples.

Results

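The eye field transcription factor genes examined here are 9 genes taken as a group, Pax6, Six3, Sox2, Meis1, Meis2, Eya1, Tfap2a, Rax and Otx2, out of the 21938 protein-coding genes of the GENCODE vM21 annotation on the mouse chromosomes. For each gene, the islands of histone H3.3 that overlapped its annotated body or the 20 kb on each side were taken from 4 chromatin immunoprecipitation sequencing (ChIP-seq) libraries. The libraries came from CD-1 (labelled CD1) mice, 2 from microdissected lens epithelium and 2 from lens fibers. The titles name the age P1 (day 1 after birth), whereas the protocol names P0.5. Both compartments were from newborn animals of this strain with no further treatment or allele in the labels, and each sample pooled 150 lenses by the labels, a number that the Methods text gives differently, so that a library is an average over many animals. Each immunoprecipitation used 12 µg of chromatin and an anti-H3.3 antibody. The study also compared DNA methylation between embryonic and newborn lens, data that are not used here, and neither is the pooled input.

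The lens consists of a front layer of dividing epithelial cells, which leave the cell cycle at the equator and elongate into fibers that fill the rest of the organ. Eye field and lens placode genes encode transcription factors that specify the eye in the early embryo. Pax6 is a paired-domain and homeodomain factor needed for lens formation, Six3 a homeodomain factor of the anterior head, Sox2 an HMG-box factor that acts together with Pax6, and Rax and Otx2 homeodomain factors best known from the retina, pigment epithelium and brain. Meis1 and Meis2 are TALE homeodomain factors, Eya1 is a coactivator and phosphatase that partners Six3 and related proteins, and Tfap2a is a factor of the surface ectoderm from which the lens and cornea form. H3.3 is a variant of histone H3 that enters chromatin independently of DNA replication, mainly at transcribed genes, promoters and enhancers. An island is a stretch of the genome in which the authors' caller, SICER2, found more ChIP reads than background, built from windows of 200 bp with gaps of up to 600 bp at a false discovery rate of 0.01.

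The libraries differed in how much of the genome they called. Epithelium 1 and 2 held 10389 and 14434 islands with 1331369 and 1430373 reads, over 45.4 and 48.9 Mb. Fiber 1 and 2 held 27059 and 35940 islands with 5041885 and 5359085 reads, over 178 and 188 Mb. The median island had 28.3, 28.1, 27.4 and 27.5 reads per kb in the same order, and the median length was 3800, 3000, 5200 and 4000 bp, so that the fiber libraries had more and mostly longer islands at a similar density. The total number of sequenced reads is unknown, and a gene without an island is therefore described as having no called island. Since each compartment has 2 libraries, the smallest p of an exact two-sided permutation test is 0.33, and every difference below that is taken over all 4 libraries and whose compartments do not overlap has that p. In pooled tissue, H3.3 in more cells and more H3.3 per cell cannot be told apart.

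Promoter windows from RefSeq (build GRCm38.p6, 250 bases before to 50 after a transcription start) were matched by symbol for 7 of the 9 genes, giving 12 windows. Of these, 2 lay in islands of both epithelium libraries, both at Pax6, against 6.31% of all 32851 windows, and 7 lay in islands of both fiber libraries, against 27.5%. A selection of the windows, which stand for the patterns described below, are printed here 5′ to 3′ in the direction of transcription, with CpG dinucleotides in capitals. They are the upstream Pax6 window at chr2:105668646-105668945 on the plus strand, which spans the annotated gene start, a second, intragenic Pax6 window at chr2:105682213-105682512 on the plus strand, the Six3 window at chr17:85620584-85620883 on the plus strand, the Sox2 window at chr3:34649745-34650044 on the plus strand, and an Otx2 window at chr14:48665060-48665359 on the minus strand.
Pax6 upstream: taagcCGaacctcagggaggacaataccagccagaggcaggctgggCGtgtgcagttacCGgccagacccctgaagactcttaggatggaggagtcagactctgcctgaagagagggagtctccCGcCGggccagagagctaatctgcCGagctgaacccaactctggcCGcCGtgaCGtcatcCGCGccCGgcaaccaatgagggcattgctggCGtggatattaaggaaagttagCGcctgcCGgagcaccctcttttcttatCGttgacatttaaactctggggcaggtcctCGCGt
Pax6 intragenic: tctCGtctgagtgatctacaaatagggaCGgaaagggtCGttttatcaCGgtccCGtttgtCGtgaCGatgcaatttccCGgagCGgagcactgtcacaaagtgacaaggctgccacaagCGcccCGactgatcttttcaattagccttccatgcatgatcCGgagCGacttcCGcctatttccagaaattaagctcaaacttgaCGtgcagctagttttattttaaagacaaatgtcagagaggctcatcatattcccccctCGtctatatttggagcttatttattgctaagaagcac
Six3: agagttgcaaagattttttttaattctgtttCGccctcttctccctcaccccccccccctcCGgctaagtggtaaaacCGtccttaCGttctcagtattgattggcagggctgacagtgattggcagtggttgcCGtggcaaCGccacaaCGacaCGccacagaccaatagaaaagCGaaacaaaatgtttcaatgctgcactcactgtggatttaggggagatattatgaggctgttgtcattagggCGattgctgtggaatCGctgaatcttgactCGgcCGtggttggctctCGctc
Sox2: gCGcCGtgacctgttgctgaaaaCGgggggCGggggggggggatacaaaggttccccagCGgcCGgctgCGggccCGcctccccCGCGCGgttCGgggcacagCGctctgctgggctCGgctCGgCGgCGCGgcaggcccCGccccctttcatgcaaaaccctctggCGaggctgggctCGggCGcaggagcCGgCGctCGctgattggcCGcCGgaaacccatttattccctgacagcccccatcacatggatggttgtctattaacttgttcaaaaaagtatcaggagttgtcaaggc
Otx2: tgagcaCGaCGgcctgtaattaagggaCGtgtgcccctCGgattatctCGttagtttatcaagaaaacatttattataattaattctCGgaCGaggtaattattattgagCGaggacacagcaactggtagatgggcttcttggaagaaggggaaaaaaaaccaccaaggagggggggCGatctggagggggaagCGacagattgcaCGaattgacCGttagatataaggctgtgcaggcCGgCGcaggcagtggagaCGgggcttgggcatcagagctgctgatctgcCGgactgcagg

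Both Pax6 windows, with 18 and 16 CpGs, lay whole inside islands of all 4 libraries. The Six3 window, with 14 CpGs, lay inside islands of both fiber libraries and in no epithelium island, and the Sox2 window, with 27 CpGs, lay inside an island of epithelium 2 and of fiber 2 and outside the islands of epithelium 1 and fiber 1. The Otx2 window held 16 CpGs, as many as the intragenic Pax6 window, and it and the other Otx2 windows lay in no island of any library. The 12 windows held between 6 and 27 CpGs, and the median over all RefSeq windows was 7. The letters CCAAT, read on both strands, occurred 3 times in the Six3 window, once in the upstream Pax6 window and once in the Sox2 window, and altogether in 6 of the 12 windows, or 50%, against 37.4% of all windows. The letters GGGCGG occurred 2 times in the Sox2 window and once in each Tfap2a window, or in 25% of the 12, against 35.7% of all windows, and TATAAA occurred in 1 Meis2 window and 1 Otx2 window, or in 16.7%, against 13.6% of all windows. The search letters do not overlap one another, and a match describes the sequence only.

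Most of the 9 genes carried H3.3 islands, and 6 of them had more of the gene body covered in both fiber libraries than in either epithelium library: Pax6, Six3, Meis1, Meis2, Eya1 and Tfap2a. That pattern was seen in 38.4% of all protein-coding genes. Rax had the opposite order, which 0.775% of genes had, Sox2 overlapped between the compartments, and Otx2 had no called island. An island touched the body of 5, 7, 7 and 7 of the 9 genes in epithelium 1, epithelium 2, fiber 1 and fiber 2, against 25.8%, 30.3%, 50.8% and 56.7% of all genes. The median coverage of the body over the 9 genes was 7.80%, 13.0%, 23.4% and 32.8% in the 4 libraries, whereas the mean over all genes was 8.18%, 8.59%, 22.1% and 21.99% and the median over all genes was at most 4.36%.

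**Figure D1:**
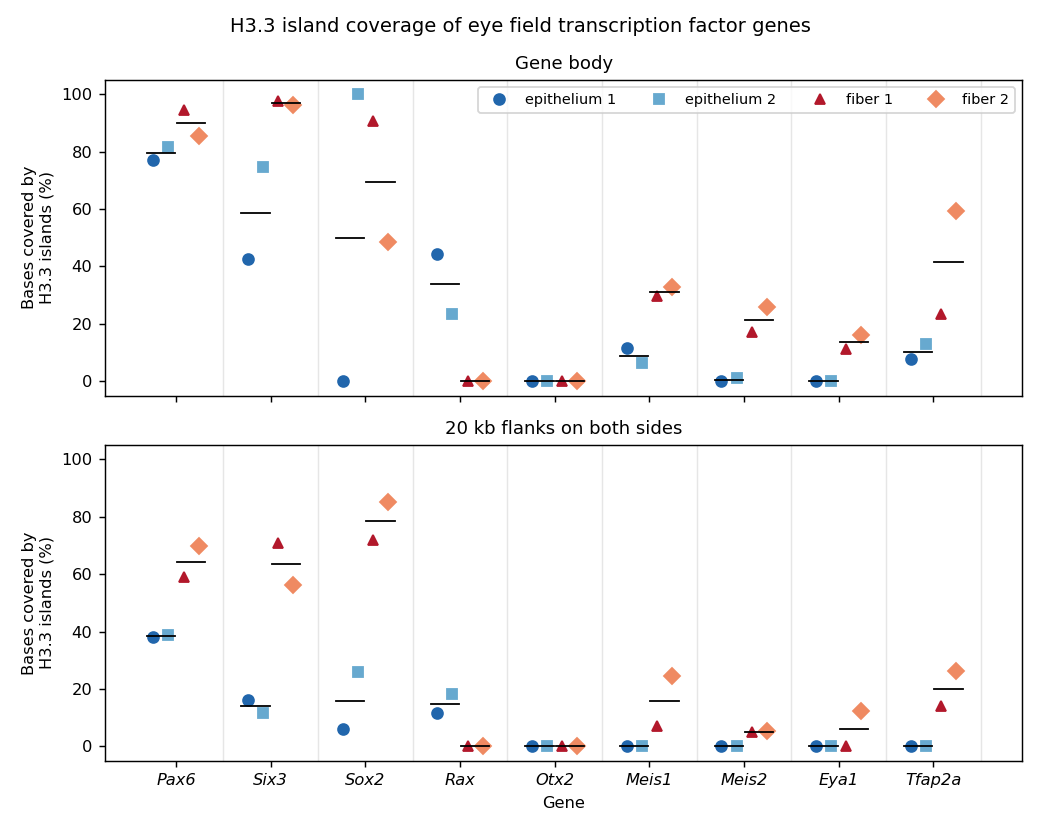
Percent of the gene body (upper panel) and of both 20 kb flanks together (lower panel) covered by H3.3 islands for each of the 9 genes, with 1 symbol per library and a black line at the mean of the 2 libraries of a compartment. The fiber libraries lie above the epithelium libraries in the body of 6 genes, Rax has epithelium values of 44.5% and 23.6% against 0 in both fiber libraries, and Otx2 stays at 0.

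Pax6 (ENSMUSG00000027168.21, chr2:105668900-105697364, plus strand) was highly covered in all 4 libraries. Islands covered 76.9% and 81.7% of its 28.5 kb body in epithelium 1 and 2, and 94.4% and 85.2% in fiber 1 and 2. The mean was 79.3% ± 3.39 (SD, n = 2) in epithelium and 89.8% ± 6.46 (SD, n = 2) in fibers, a difference of 10.5 percentage points, and the compartments did not overlap. The difference was 5.91 points without fiber 1 and 28.04 points with islands of at least the median reads per kb of their library. These body values exceeded those of 97.97% of all genes in epithelium and of 93.0% in fibers. A total of 14901 bp, 52.3% of the body, lay in islands of all 4 libraries, in 6 stretches that included the gene start and the 1901 bp after it. No base of the body was in both fiber libraries and in neither epithelium library. Islands overlapped 8, 7, 8 and 8 of the 8 exons of the longest protein-coding transcript.

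The Pax6 flanks were also covered more in fibers. Their coverage was 38.2% and 38.8% in epithelium and 58.8% and 69.7% in fibers, a difference of 25.8 points without overlap. The body exceeded the flanks by 38.7 and 42.9 points in epithelium and by 35.5 and 15.5 points in fibers. The body was covered to at least 76.9% in each library, which limits how far it could rise above the flanks, and the 2 differences are not compared. In fibers, a single island ran from upstream of Pax6 over the gene start. It spanned 21000 bp with 742 reads in fiber 1, beginning at -12.9 kb from the gene start, and 22800 bp with 748 reads in fiber 2, beginning at -13.7 kb. In both epithelium libraries, the island over the start began at -2.299 kb. Each also had a separate island farther upstream, from -9.699 to -3.1 kb in epithelium 1 and from -10.499 to -7.1 kb in epithelium 2. The upstream flank also holds Paupar, a noncoding gene on the opposite strand, which was covered to 61.5% and 84.5% in epithelium and to 100% in both fiber libraries. Pax6os1, antisense to Pax6 and overlapping its 5′ end, was covered to 12.3% and 6.80% in epithelium and to 13.8% and 20.1% in fibers. The downstream flank holds part of the protein-coding gene Elp4, on the opposite strand, which made up 40.8% of both flanks together. The whole body of Elp4 was covered to 1.56% and 3.03% in epithelium and to 6.98% and 8.83% in fibers. ChIP reads carry no strand of transcription, so that the share of each overlapping gene cannot be told apart.

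Six3 (ENSMUSG00000038805.10, chr17:85613608-85629302, plus strand) was covered more in both fiber libraries than in either epithelium library. Islands covered 42.7% and 74.6% of the 15.7 kb body in epithelium and 97.5% and 96.2% in fibers. The mean was 58.6% ± 22.5 (SD, n = 2) and 96.9% ± 0.901 (SD, n = 2), which differed by 38.2 points without overlap, although the 2 epithelium libraries themselves lay far apart and the difference was 22.3 points without epithelium 1 and 54.2 points without epithelium 2. Flank coverage was 16.2% and 11.7% in epithelium and 70.7% and 56.2% in fibers, and the body exceeded the flanks in each of the 4 libraries. With the longest protein-coding transcript, chr17:85620834-85626191, as the body, this did not hold in all 4 libraries. The fibers had 1 island over nearly the whole gene, of 24000 and 20600 bp, where epithelium had 2 and 4 separate islands of at most 4800 and 5000 bp.

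Both epithelium libraries left the same stretch around the RefSeq start of Six3 without an island. Their islands ended at chr17:85620400, and the stretch chr17:85620401-85621600, which contains the Six3 window printed above and 767 bp of exon, was in both fiber islands and in no epithelium island. Altogether 3200 bp, 20.4% of the body, had this fiber-only pattern, in 3 stretches, and 6302 bp, 40.2%, were in islands of all 4 libraries. Six3os1, a noncoding gene on the opposite strand whose body overlaps Six3, was covered to 36.0% and 20.3% in epithelium and to 79.7% and 89.9% in fibers.

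Sox2 (ENSMUSG00000074637.7, chr3:34650405-34652461, plus strand) is a gene of 1 exon and 2057 bp, shorter than most islands. Its body was covered to 0 and 100% in epithelium and to 90.5% and 48.4% in fibers, so that the compartments overlapped and the replicates of each differed widely. The flanks did not overlap. They were covered to 6% and 25.9% in epithelium and to 72.0% and 85.2% in fibers, a difference of 62.6 points, and the fiber mean of 78.6% exceeded the flanks of 98.6% of all genes. In fiber 1, an island of 23400 bp began 0.196 kb after the gene start and ran past the downstream flank. In fiber 2, an island of 6400 bp ended inside the gene and a second one of 18600 bp began 6.20 kb after the start. Sox2 lies within Sox2ot, a noncoding gene of 578350 bp on the same strand, whose body was covered to 0.415% and 2.52% in epithelium and to 17.2% and 19.3% in fibers.

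**Figure D2:**
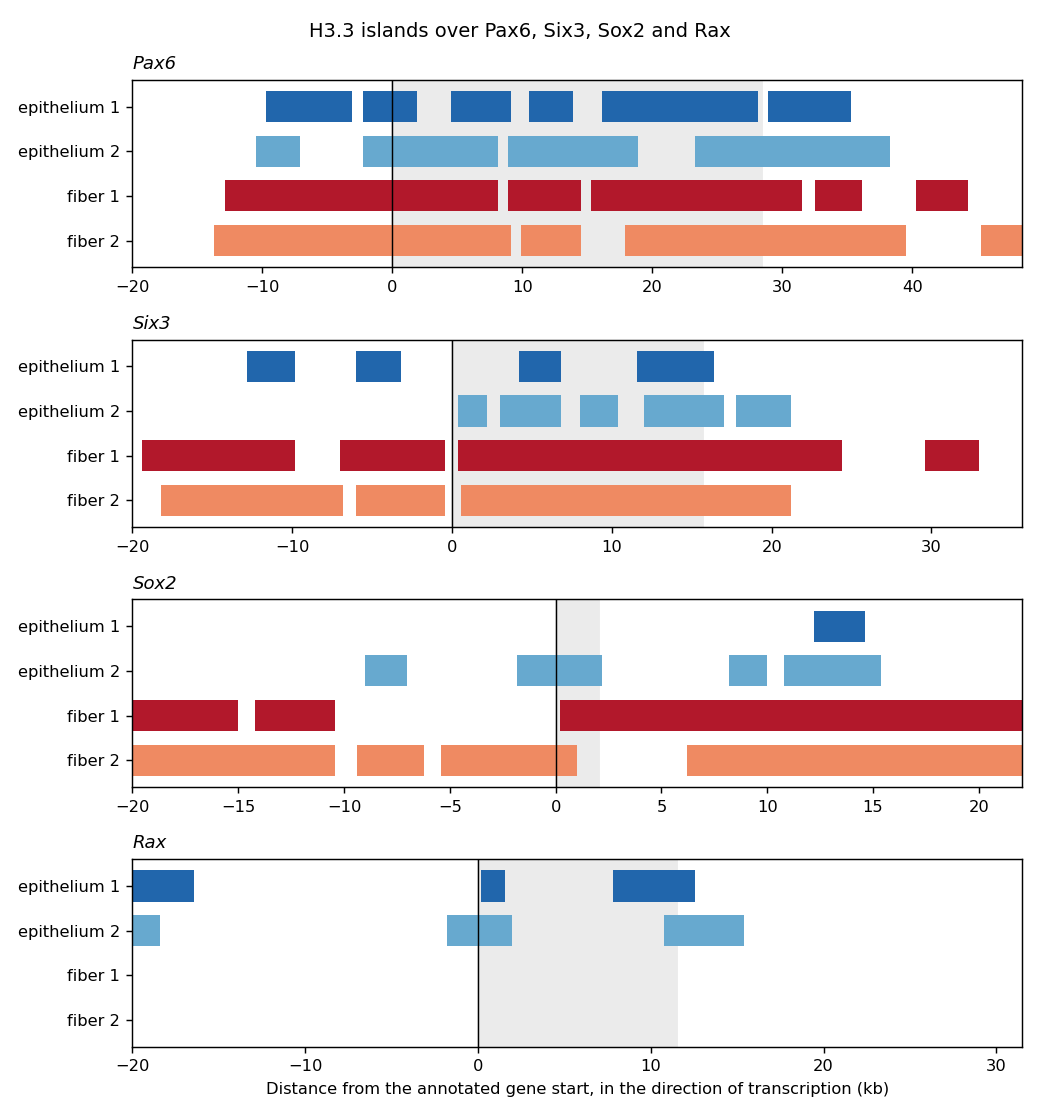
Position of H3.3 islands (bars) in each library over Pax6, Six3, Sox2 and Rax, plotted against the distance in kb from the annotated gene start (vertical line) in the direction of transcription, with the gene body shaded and 20 kb shown on each side. The fiber libraries have long islands over Pax6 and Six3 and around Sox2, and no island in the window shown for Rax.

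Rax (ENSMUSG00000024518.4, chr18:65928277-65939787, minus strand) was the only one of the 9 genes with higher body coverage in both epithelium libraries. Its 11.5 kb body was covered to 44.5% and 23.6% in epithelium and to 0 in both fiber libraries, a difference of -34.0 points, and its flanks to 11.7% and 18.2% in epithelium and to 0 in fibers. An island in the body in both epithelium libraries with none in either fiber library was found in 52 genes, or 0.237% of all genes. The islands common to both epithelium libraries covered 2124 bp in 2 stretches. One of 1400 bp began 0.187 kb after the gene start and held 581 bp of exon, and the other lay at the 3′ end. In epithelium 1 the island near the start had 58 reads over 1400 bp, or 41.4 reads per kb, denser than 97.98% and longer than 0.655% of the islands of that library. The other epithelium 1 island, at the 3′ end, held most of the covered bases of the body, with 119 reads over 4800 bp, or 24.8 reads per kb, denser than 12.4%. The 3′ islands of both epithelium libraries lay outside the longest protein-coding transcript of Rax, chr18:65933748-65939106. With that transcript as the body, the difference was -20.6 points in place of -34.0. In epithelium 2 the island near the start had 104 reads over 3800 bp, or 27.4 reads per kb, and crossed the start. The neighbours Raxos1, a noncoding gene at the Rax start, and Cplx4, which encodes a complexin, were covered to 48.1% and 91.0%, and to 40.0% and 16.5%, in epithelium and to 0 in fibers. The nearest fiber islands lay 21.7 and 20.9 kb from the body.

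Genes that mark retina and pigment epithelium, tissues next to the lens in which Rax and Otx2 are active, were examined beside this result. For 5 genes, the number with an island in the body was 0, 0, 0 and 1 in the 4 libraries, against 25.8%, 30.3%, 50.8% and 56.7% of all genes, and their summed coverage was 0, 0, 0 and 12.5 percentage points. Crx, Rlbp1, Tyr and Rpe65, which mark photoreceptors, Müller glia and pigment cells, had no island in the body in any library, and Pmel had one in fiber 2, over 12.5% of the body. The flanks of Rlbp1 were covered to 11.5% and 12.5% in epithelium and to 0 in both fiber libraries, whereas those of Pmel were covered to 0 in epithelium and to 11% in both fiber libraries. The flanks of Crx were covered to 7.42% in epithelium 2 and to 4.42% in fiber 1. These genes are a part of the marker list, mark differentiated cells and do not show that the tissues were absent. The part of other tissues in the Rax islands was not tested.

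Otx2 (ENSMUSG00000021848.16, chr14:48657677-48673819, minus strand) had no called island in its 16.1 kb body or its flanks in the 4 libraries, as did 29.7% of all genes. The nearest islands lay 521 and 666 kb away in epithelium and 391 and 139 kb away in fibers. Stretches of 75 nt, the read length, that occur more than once in the genome made up 0.0867% of the Otx2 body, at most 2.24% of the body in the 9 genes, and at most 3.67% of the flanks.

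The TALE homeodomain genes Meis1 and Meis2 are long, and islands covered a minority of each body. For Meis1 (ENSMUSG00000020160.18, chr11:18879817-19018985, minus strand), the coverage was 11.5% and 6.47% in epithelium and 29.7% and 32.8% in fibers. The mean was 8.98% ± 3.56 (SD, n = 2) against 31.2% ± 2.13 (SD, n = 2), a difference of 22.3 points without overlap. The 4 libraries shared 2 intronic stretches, chr11:18990001-18991600 and chr11:19007401-19009200, which together made up 3400 bp or 2.44% of the body. In fibers, islands also covered the gene start, with 3800 bp and 101 reads in fiber 1 and 6200 bp and 171 reads in fiber 2, whereas no epithelium island reached it. The flanks had no epithelium island and were covered to 7.04% and 24.5% in fibers.

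Meis2 (ENSMUSG00000027210.20, chr2:115863064-116065839, minus strand) had no island in epithelium 1 and 1 of 2400 bp in epithelium 2, against 7 and 12 islands in fiber 1 and 2. Its 203 kb body was covered to 0 and 1.18% in epithelium and to 17.1% and 25.8% in fibers, a difference of 20.8 points without overlap. Both fiber libraries and neither epithelium library covered 24439 bp in 6 stretches, which included the first 1.84 kb of the gene. The longest was the intronic stretch chr2:116017201-116024600. In fiber 2 that island held 287 reads over 7400 bp, or 38.8 reads per kb, denser than 96.4% of the islands of the library, and in fiber 1 an island of 10600 bp with 337 reads covered it. The nearest epithelium 1 island was 1052 kb away. The noncoding gene 2700033N17Rik in the Meis2 flank was covered to 0 in epithelium and to 100% in both fiber libraries.

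Eya1 (ENSMUSG00000025932.14, chr1:14168954-14310235, minus strand) had no island in epithelium, and its 141 kb body was covered to 11.2% and 16.1% in fibers, a mean of 13.6% ± 3.44 (SD, n = 2). The nearest epithelium islands lay 9790 and 852 kb away. The fiber libraries shared 7600 bp in 2 stretches, of which chr1:14179001-14184200, toward the 3′ end, overlapped 338 bp of exon. Fiber 1 covered none of the 5′ part of the gene up to its midpoint and 22.4% of the rest, and fiber 2 covered 8.26% and 23.8%. An island at the gene start was found in fiber 2 alone, with 66 reads over 2400 bp. The flanks were covered to 0 and 12.3% in fibers, which overlaps the value of 0 in epithelium.

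Tfap2a (ENSMUSG00000021359.16, chr13:40715302-40738376, minus strand) was covered to 7.80% and 13.0% in epithelium and to 23.4% and 59.4% in fibers. The difference of 30.98 points was without overlap, and the fiber libraries lay far apart, so that it was 48.97 points without fiber 1 and 13.0 points without fiber 2. The islands lay only in part at the same places, since 42.1% of the body bases in an epithelium island were also in a fiber island. The epithelium libraries shared 1000 bp, chr13:40731401-40732400, that no fiber island covered, and the fiber libraries shared 4600 bp that no epithelium island covered, in the stretches chr13:40722801-40725400 and chr13:40734401-40736400. The latter contains the RefSeq Tfap2a window at chr13:40734871-40735170, which lies inside the annotated body. The other RefSeq window, chr13:40733746-40734045, lay inside islands of epithelium 2 and both fiber libraries, and no library had an island over the annotated gene start. Coverage of the flanks was 0 in epithelium and 14.0% and 26.3% in fibers.

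**Figure D3:**
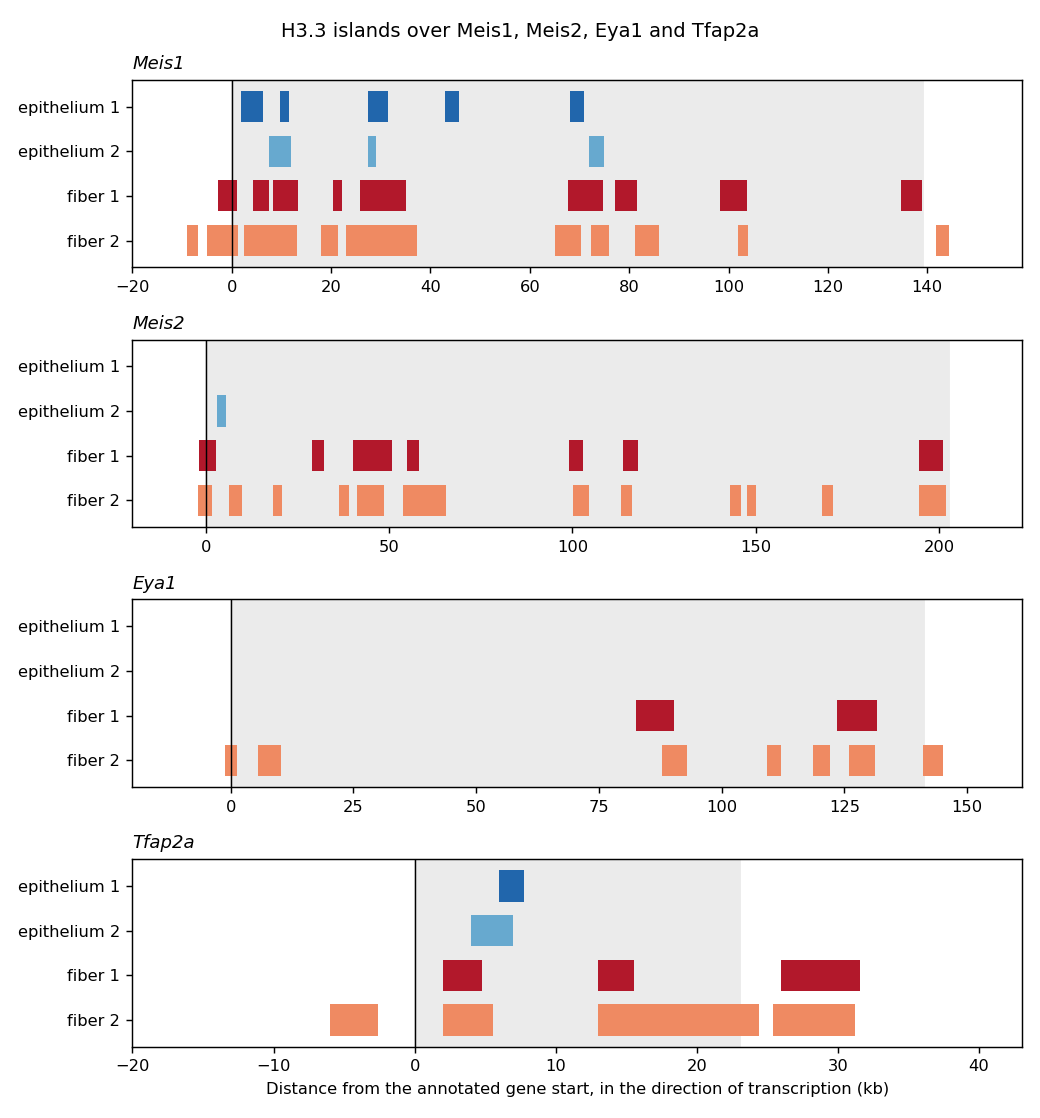
Position of H3.3 islands (bars) in each library over Meis1, Meis2, Eya1 and Tfap2a, plotted against the distance in kb from the annotated gene start (vertical line) in the direction of transcription, with the gene body shaded. Meis2 has 1 island in epithelium 2 and 7 and 12 in the fiber libraries, and Eya1 has islands in the fiber libraries alone.

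Coverage of the body exceeded that of the flanks in all 4 libraries for 4 of the 9 genes, Pax6, Six3, Meis1 and Tfap2a, against 8.83% of all genes. In both fiber libraries it did so for 6 genes, with Meis2 and Eya1 added, against 27.8% of all genes, and in both epithelium libraries for 5, with Rax added, against 11.3%. The median of body minus flanks over the 9 genes was 7.80, 6.47, 12.2 and 8.22 points in the 4 libraries, and the median over all genes was 0 in each. The flanks were higher in both fiber libraries than in either epithelium library for 6 genes, Pax6, Six3, Sox2, Meis1, Meis2 and Tfap2a, against 46.8% of all genes. When the bases of the 9 genes were pooled, the body and the flanks were covered to nearly the same extent, 8.88% and 8.02% in epithelium 1, 9.33% and 10.5% in epithelium 2, 24.3% and 25.3% in fiber 1, and 30.1% and 31.1% in fiber 2. With flanks of 10 kb, the count of genes whose body exceeded the flanks in all 4 libraries was 1, Six3. With the longest protein-coding transcript as the body it was 2, Pax6 and Meis1, so that Six3 and Tfap2a dropped out. The 8.83% above is for the annotated body and flanks of 20 kb, and no share over all genes is given for these other settings.

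The length and density of islands could be compared at few of the genes. In the 4 genes with a body island in every library, the longest island was 12000 and 15000 bp in epithelium and 21000 and 22800 bp in fibers at Pax6, 4800 and 5000 against 24000 and 20600 bp at Six3, 4600 and 4400 against 9200 and 14400 bp at Meis1, and 1800 and 3000 against 2800 and 11400 bp at Tfap2a. The length was greater in both fiber libraries in 3 of the 4, since Tfap2a overlapped, against 74.8% of the 4168 genes with an island in all libraries. The median ratio of fiber to epithelium was 2.79 for length and 1.004 for reads per kb. Reads per kb were 33.6 and 29.7 in epithelium and 33.7 and 31.9 in fibers at Pax6, a ratio of 1.04 within the spread, and 30.7 and 34.4 against 33.9 and 36.5 at Six3, a ratio of 1.08. They were 27.2 and 27.8 against 27.2 and 26.2 at Meis1, a ratio of 0.972 with the fiber values lower by a small margin, and 32.2 and 28.3 against 28.7 and 24.1 at Tfap2a, a ratio of 0.873 with overlap. Of the 4 genes, none was denser in both fiber libraries than in either epithelium library, against 31.6% of the 4168 genes. Reads per kb are raw counts that carry each library's depth and island calling, so similar values do not show similar H3.3 levels.

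**Figure D4:**
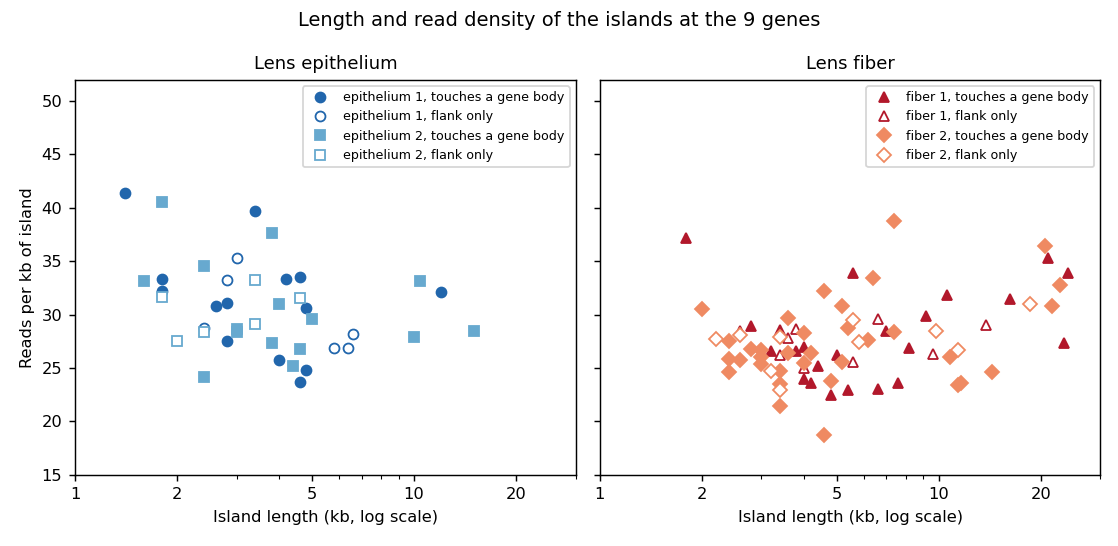
Length (kb, log axis) and reads per kb of the islands that overlap the 9 genes or their flanks, with epithelium left and fibers right, 1 symbol type per library, filled where the island touches a gene body and open where it lies in a flank. The longest islands are in the fiber panel, up to 24000 bp, at densities similar to those in the epithelium panel.

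The difference in the number of called islands bears on these counts. When the densest 10389 islands were taken from each library, body coverage was higher in both fiber libraries for 3 of the 9 genes, Pax6, Six3 and Meis2, against 13.2% of all genes, and the values of Pax6 and Six3 did not move. Meis1 then had 11.5% and 3.31% in epithelium and 7.90% and 1.44% in fibers, Tfap2a had 7.80% and 13.0% against 12.1% and 0, and Eya1 had fiber values of 0 and 3.68%. The difference at Meis2 was 4.44 points with the densest islands, in place of 20.8, and 9.12 points with the islands of most reads. With the 10389 islands holding the most reads, the count was 5, Pax6, Six3, Meis1, Meis2 and Eya1, against 17.9% of all genes. Since 10389 is the whole set of epithelium 1 and fiber values of 0 cannot fall, epithelium 2 was the single Rax value that could change, and it was 23.6% under both choices. Body coverage was higher in both epithelium libraries for 3.91% of all genes with the densest islands and for 2.65% with the islands of most reads, against 0.775% with all islands. With islands of at least the median reads per kb of their library, Rax had 12.2% and 0 in epithelium, which overlaps the fiber values, and 4 genes, Pax6, Six3, Meis1 and Meis2, the last by 7.55 points, were covered more in both fiber libraries, against 25.8% of all genes.

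A further 34 genes of the eye field, lens placode and Pax, Eya and Dach network and of the Meis and Pbx partners were examined in the same way. Body coverage was higher in both fiber libraries for 15 of the 34, against 38.4% of all genes, higher in both epithelium libraries for 0, against 0.775%, overlapping for 11 and 0 in the 4 libraries for 8. An island touched the body of 14, 15, 21 and 26 of them in the 4 libraries, against 25.8%, 30.3%, 50.8% and 56.7% of all genes, and their median coverage was 0, 0, 8.88% and 12.8%. The 8 non-overlapping genes with the largest differences were Sox1, Maf, Prox1, Pbx2, Pknox1, Hsf4, Pitx3 and Gata3. Sox1, an HMG-box gene related to Sox2 that is active in lens fibers, was covered to 0 and 16.6% in epithelium and to 100% in both fiber libraries. Maf, which activates crystallin genes, had 0 and 13.7% against 93.6% and 100%, and Prox1, needed for fiber elongation, had 21.1% and 27.7% against 98.5% and 100%. Pbx2 and Pknox1, TALE factors like Meis1, had 80.4% and 8.72% against 100% and 100%, and 20.5% and 23.7% against 77.3% and 71.7%.

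Family members of the 9 genes followed no single pattern. Among relatives of Six3, Six4 was covered to 0 in epithelium and to 35.1% and 40.8% in fibers, Six2 and Six5 overlapped, and Six6 had no island in the body. Of the Eya genes, Eya3 had 0 in epithelium and 14.4% and 11.9% in fibers, and Eya2 and Eya4 overlapped. Sox3, Tfap2b and Meis3 had no island in the body in the 4 libraries, although the flanks of Meis3 were covered to 5.26% and 3.26% in fibers, and Tfap2c overlapped, with 29.1% and 0 in epithelium and 0 and 13.4% in fibers. Otx1, the paralog of Otx2, had 54.1% and 29.5% in epithelium and 0 and 41.8% in fibers.

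**Figure D5:**
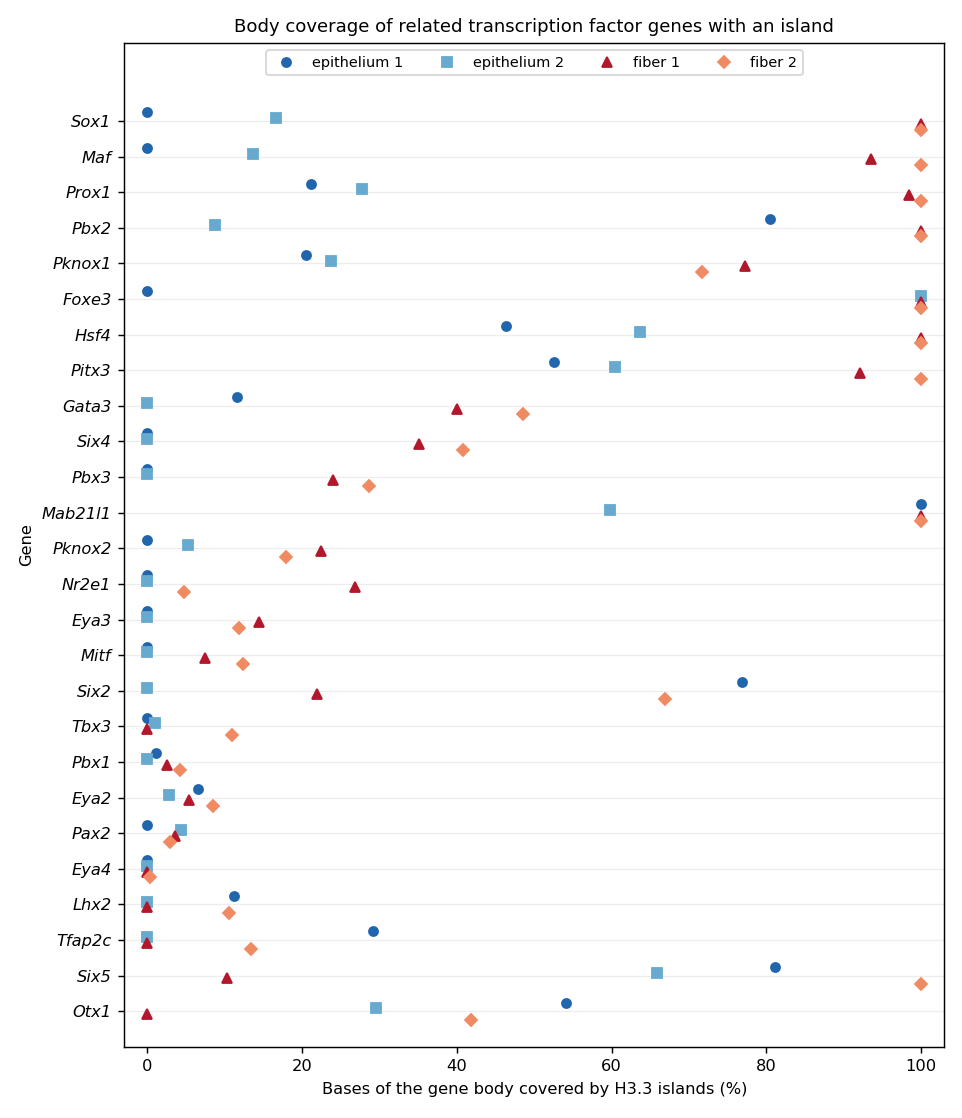
Percent of the gene body covered by H3.3 islands for the 26 related transcription factor genes with an island in the body in at least 1 library, with 1 symbol per library drawn slightly apart and genes ordered by the difference of the compartment means. The genes at the top, such as Sox1 and Maf, reach 93.6% to 100% in the fiber libraries and at most 16.6% in epithelium.

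The labels of the compartments were checked with marker genes. Of 11 lens fiber genes, 9 were covered more in both fiber libraries, against 38.4% of all genes, and 2, Cryba1 and Cryaa, overlapped, and Cryaa, which encodes αA-crystallin, was covered to 100% in the 4 libraries. Bfsp1, Lim2 and Crygs, genes of the beaded filament, the fiber membrane and the crystallins, had 0 in epithelium and 100% in fibers. Of 6 genes of lens epithelium, 0 were covered more in both epithelium libraries, against 0.775% of all genes, 2 were covered more in both fiber libraries, 3 overlapped and 1, Sulf1, had no island in the body. Cdh1, the epithelial cadherin, had 17.0% and 26.9% in epithelium and 41.6% and 48.6% in fibers, and Pdgfra had 15.2% and 14.4% against 64.5% and 74.5%. Gja1, which encodes a gap junction protein, had 7.15% and 17.5% against 0 and 14.3%, which overlap, so that none of these 6 genes set both epithelium libraries above both fiber libraries. Foxe3, a forkhead gene of the lens epithelium that is also in the network list, had 0 and 100% in epithelium and 100% in both fiber libraries. Of 3 vessel genes, 2 had islands over at most 9.13% of the body. The flanks of Pecam1 were covered to 6.5% and 0 in epithelium and to 54.5% and 40% in fibers. Those of Cdh5 were covered to at most 10.1%. The 3 genes of cornea and mesenchyme had no island in the body, and the flanks of Col1a1 were covered to 12.6% in epithelium 1 and to 12.6% and 18.1% in fibers. Of 3 blood and immune genes, Aif1 had 39.4% of its body covered in fiber 2 alone, with its flanks covered to between 20% and 44.5% in the 4 libraries. The flanks of Hba-a1 were covered to 0 in epithelium and to 10.5% and 13.5% in fibers.

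The protein-coding genes whose coverage of body and flanks was nearest to each of 5 of the 9 genes were found by the root mean square difference over 8 values, 2 regions in 4 libraries. They were Hspg2 and Lingo3 for Pax6, at 5.58 and 6.98 points, Mif4gd and Necab3 for Six3, at 4.57 and 7.63 points, Ly6g5b and Zmynd10 for Sox2, both at 13.0 points, Anxa6 and Gm42791 for Meis1, at 2.40 and 2.64 points, and Mtf1 and Gpr157 for Tfap2a, at 5.29 and 5.60 points. Hspg2, which encodes perlecan of the lens capsule, had 71.1% and 78.4% of its body covered in epithelium and 94.3% and 91.6% in fibers. The other 4 genes had no island in body and flanks in at least 1 library and were not compared.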

How the data were processed

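H3.3 ChIP-seq islands were analysed in 4 libraries, 2 of newborn lens epithelium and 2 of lens fibers. Per the authors' methods and labels, 75 nt single-end reads were aligned to mm10 (GRCm38) by BWA, and SICER2 was run on every library separately (window 200 bp, gap 600 bp, false discovery rate 0.01). The deposited files hold, for each island, its coordinates and the raw count of ChIP reads. Whether the pooled input or removal of duplicate reads was used in calling is not given in the sources used here. Sequencing depth is unknown, so no interval or limit of detection was computed, and precision is limited by the 2 libraries per compartment, described as biological replicates.

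Islands were intersected (at least 1 bp) with GENCODE vM21 gene bodies and 20 kb flanks. The covered share, the longest island and reads per kb of island were computed per library, with the same measures over 21938 protein-coding genes as background. Because reads are given only inside islands called separately in each library, no model of counts was fitted, and differences were compared by overlap of the libraries and an exact two-sided permutation test. Positions are counted from 1. Covered bases were identical to those from bedtools 2.31.1 for all 21938 genes in each library, and the steps were tested on simulated data. Python 3.11.15, numpy 2.4.6, numba 0.67.0 and matplotlib 3.10.9 were used.

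The 9 genes and the gene lists were chosen with earlier results of these data known. Named were the 9 genes, up to 8 network genes with the largest differences among those that did not overlap, neighbours within the flanks and the 2 genes most alike. Further family members and markers were picked for naming with their values in view. The replicate numbers did not pair the samples. The alternatives left out each library, changed the islands kept, the definition of body and flanks, and the measures of length and density. Some genes of the network and marker lists are not reported here, and the counts leave them out. The bisulfite libraries and the input were not analysed here.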

Additional observations from a re-analysis of the deposited data

How the results depend on the processing

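The counts and medians over the 9 genes were recomputed under 86 combinations of a value and an alternative, of which 58 stayed within 1.5 times the count or within the spread between libraries and 28 moved. The number of genes covered more in both fiber libraries (6) was 3 with the same number of densest islands and lay between 6 and 7 when 1 library was left out, 7 without epithelium replicate 2, when Sox2 joined. Same-numbered libraries did not deviate together (r = -0.00733 between the replicate differences of the compartments over 21938 genes), so that they share only a number; with the replicate number as a block the count was again 6, and a paired exact test cannot go below p = 0.5. The number of genes with a body island in both libraries was 5 in epithelium and 7 in fibers. It was 4 in fibers with islands of at least the median density and with the densest islands, and 3 in epithelium when islands had to cover at least 10% of the body. Shares over all genes are given for single libraries, 25.8% and 30.3% in epithelium and 50.8% and 56.7% in fibers. None is given for both libraries of a compartment together, so these counts are not compared with all genes. The number of genes with the body above the flanks in all 4 libraries (4) was 2 with islands of at least the median density (Pax6 and Six3). It was 2 with the longest transcript as the body (Pax6 and Meis1) and 1 with flanks of 10 kb (Six3). No share over all genes is given for these settings.

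The median over the 9 genes of body minus flanks, here taken from each gene's mean over the 2 libraries and not from each library by itself, was 10.4 points in epithelium. It was 4.10 with islands of at least the median density, 7.76 with islands of at least 2000 bp, 0.592 with the longest transcript, 8.98 with flanks of 10 kb, and 6.47 to 10.4 when 1 library was left out. In fibers it was 15.5 points, and 0.821 with islands of at least the median density, 4.44 with the densest islands, 9.12 with the islands of most reads, 1.13 with flanks of 10 kb, 19.4 with flanks of 50 kb, and 8.22 to 15.5 when 1 library was left out. The ratio of island length over 4 genes (2.79) was 1.62 with the densest islands and 1.80 to 3.70 when 1 library was left out. The ratio of reads per kb (1.004) was 1.07 with the densest islands, 1.04 with the islands of most reads and with islands of at least 2000 bp, 1.03 relative to the median island, 0.978 to 1.02 when 1 library was left out, and 0.266 when reads were divided by the library's total in islands, a scaling that carries the larger total of the fiber libraries. With the densest islands and the islands of most reads, 3 genes could be compared, since Tfap2a had no island left in 1 library. The same held for islands of at least the median density and of at least 2000 bp. Without epithelium replicate 1, 6 genes could be compared, so that the set of genes changed with these settings.

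The difference in body coverage of single genes kept its direction in 66 of 72 combinations, counted over the 8 genes with a difference and without the replicate block, which cannot change it. The 66 include the combinations of Eya1 and Rax, which could not reverse. Eya1 had no epithelium island and Rax no fiber island in the body, and coverage cannot fall below 0. The size often did not hold, and with islands of at least the median density Tfap2a fell from 30.98 to 1.30 points, Eya1 from 13.6 to 2.28, and Rax was -6.08 in place of -34.0, with overlap in each. Sox2 (19.4 points) was -25.8 with islands of at least the median density and with the densest islands, -30.6 without epithelium replicate 1 and -1.58 without fiber replicate 1, and ranged from -30.6 to 69.4 over the libraries left out. With the densest islands, Meis1 was -2.73 and Tfap2a -4.33. The cause was not tested. Flanks were not masked for noncoding genes, and sequencing depth, which sets how weak an island can be called, is unknown.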
